A study of Mus musculus with 4 samples.

Results

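Vascular smooth muscle cells (VSMCs) of atherosclerotic plaques were compared with cells of the ligated carotid artery in control mice, that is, mice without the Trf2T188A transgene. The plaque library held 1502 cells, all of which were used. The ligation library held 4967 cells, and 89 were left out because they had UMIs of 4 or more of 7 endothelial genes (Pecam1, Cdh5, Cldn5, Egfl7, Vwf, Ptprb, Ctla2a; 63 cells) or of 7 myeloid genes (Lyz2, C1qa, C1qb, Fcer1g, Tyrobp, Laptm5, Ptprc; 26 cells). The 6380 remaining cells, 1502 from plaque and 4878 from the ligated artery, were part of 12790 cells in the 4 libraries of the series. The same rule would have left out 2 plaque cells.

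The plaque cells came from Myh11-CreERt2/Confetti/ApoE-/- mice on a C57Bl/6 background. Apoe was deleted in all cells of these mice, and tamoxifen at 6 weeks of age switched on a Confetti fluorescent protein gene in cells that express Myh11, a gene of contractile VSMCs. The mice then received a high fat diet for 14 weeks, and plaques were cut out of the aortic root, the aortic arch and the carotid arteries. The authors kept only cell clusters in which the Confetti reporters were found. The ligated cells came from wild type C57Bl/6 littermates of SM22a-TRF2T188A mice, with Apoe intact, whose left carotid artery was tied off at 4 to 5 months of age and taken 28 days later without its adventitia and without stretches that had not remodelled. These cells were not sorted, and the ligation tables list no reporter feature. A second pair of libraries, from mice that carry the Trf2T188A transgene under the minimal Sm22a promoter in VSMCs, gives the same contrast of plaque (929 cells) and ligated artery (5270 cells) and is set beside the control values. Its plaque mice were also ApoE-/- and Confetti-labelled.

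There was 1 library on each side, and how many mice were pooled in each is not given in the sources used here. No test of the difference between plaque and ligated artery was therefore possible. Arterial site, lesion type, Apoe genotype, diet, age, reporter selection and processing all went with the side and cannot be told apart. The plaque reads were processed with Cell Ranger 7.0.0 and the ligation reads with 6.1.2. The plaque library had 37869934 UMIs with a median of 22765.5 per cell and 5086.5 genes, whereas the ligated library had 46625479 UMIs with a median of 8621.5 per cell and 2896 genes. The median share of mitochondrial UMIs was 2.43% in plaque and 1.89% in ligated cells, and 1 cell barcode was found in both libraries. Levels are given as the mean over cells of UMIs per 10000 UMIs of the cell. A log2 ratio is that of the plaque mean over the ligated mean after 0.1 was added to each, which understates the difference for low genes, and a gene is called higher or lower where this log2 ratio is at least 1 or at most -1, a 2-fold difference. Intervals are 95% intervals that cover counting error only.

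VSMCs of the healthy media make contractile proteins and do not divide. After injury or in atherosclerosis they can lose these proteins, make collagen, proteoglycans and other matrix, and take on features of fibroblasts or of cartilage and bone cells, a process called phenotypic modulation. Carotid ligation stops the flow and leads to a neointima of VSMCs without high blood lipids, whereas plaques grow in an artery wall loaded with lipid and inflammatory cells.

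Apoe, which encodes the apolipoprotein deleted in the plaque mice, lies at chr7:19696109-19699188 in GRCm38. It had 172 UMIs in plaque cells (147 to 200) and 40729 in ligated cells (40334 to 41127). The level was 0.042 in plaque and 9.26 in ligated cells, with a log2 ratio of -6.04 (-6.12 to -5.96). An Apoe UMI was found in 6.52% of plaque and 64.9% of ligated cells. The 2 libraries matched their labels for this gene, and in the Trf2T188A pair the log2 ratio was -5.63.

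Among 24814 gene symbols in both tables, 8954 had a level of at least 0.1 in either library. Of these, 596 (6.66%) were higher and 122 (1.36%) lower in plaque, and the median log2 ratio was 0.07. With 1 in place of 0.1 added to each level, 89 were higher and 27 lower. In the Trf2T188A pair 706 of 8940 genes (7.9%) were higher and 87 (0.973%) were lower. The pairs had 518 higher genes in common, which is 86.9% of those of the control pair and 73.4% of those of the Trf2T188A pair. They had 77 lower genes in common, 63.1% and 88.5% of each. In both pairs the plaque library was deeper and was processed with another Cell Ranger version than the ligated one. The overlap is therefore not independent evidence of a lesion difference. The longest of 4 equal bins by genomic span had median log2 ratios of 0.45 (control pair) and 0.49 (Trf2T188A pair). The part of processing in the overlap was not tested. Between libraries processed with the same version, 10 genes (0.112%) were higher and 4 (0.045%) lower in Trf2T188A/ApoE-/- than in ApoE-/- plaque. Likewise, 1 gene (0.0124%) was higher and 2 (0.0248%) lower in ligated Trf2T188A than in ligated control cells.

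The genes with the highest ratios fell into a few kinds. Col2a1, the collagen of cartilage, and Ibsp, bone sialoprotein, stood near the top, along with the cartilage genes Chad, Cytl1 and Col11a1. Cytl1 UMIs were also found in 49 of the 89 endothelial and myeloid cells left out (55.1%), against 4.51% of the kept ligated cells. Serpina3n, Lcn2 and C3 are acute phase and complement genes, and Prg4, Dcn and Spp1 encode secreted matrix proteins. The other genes of the 20 highest included Cmss1, Camk1d, Cdk8, Ctnna3, Gphn, Erbb4, Kcnq5 and Arhgap6, which were in the longest of 4 equal bins of genes by genomic span, and Gm2830, which spans 385 bases. The lowest 20 included Apoe, the growth factor genes Hbegf and Vegfa, the kinase gene Sgk1, the early response genes Egr3 and Arc, the BMP target Id1, the Wnt agonist Rspo3, and Igfbp2. Of the genes with a level of at least 1, the last one inside the 20 highest had a log2 ratio of 3.45 and the next one outside 3.24. At the lower end these values were -1.61 and -1.59.

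**Figure D1:**
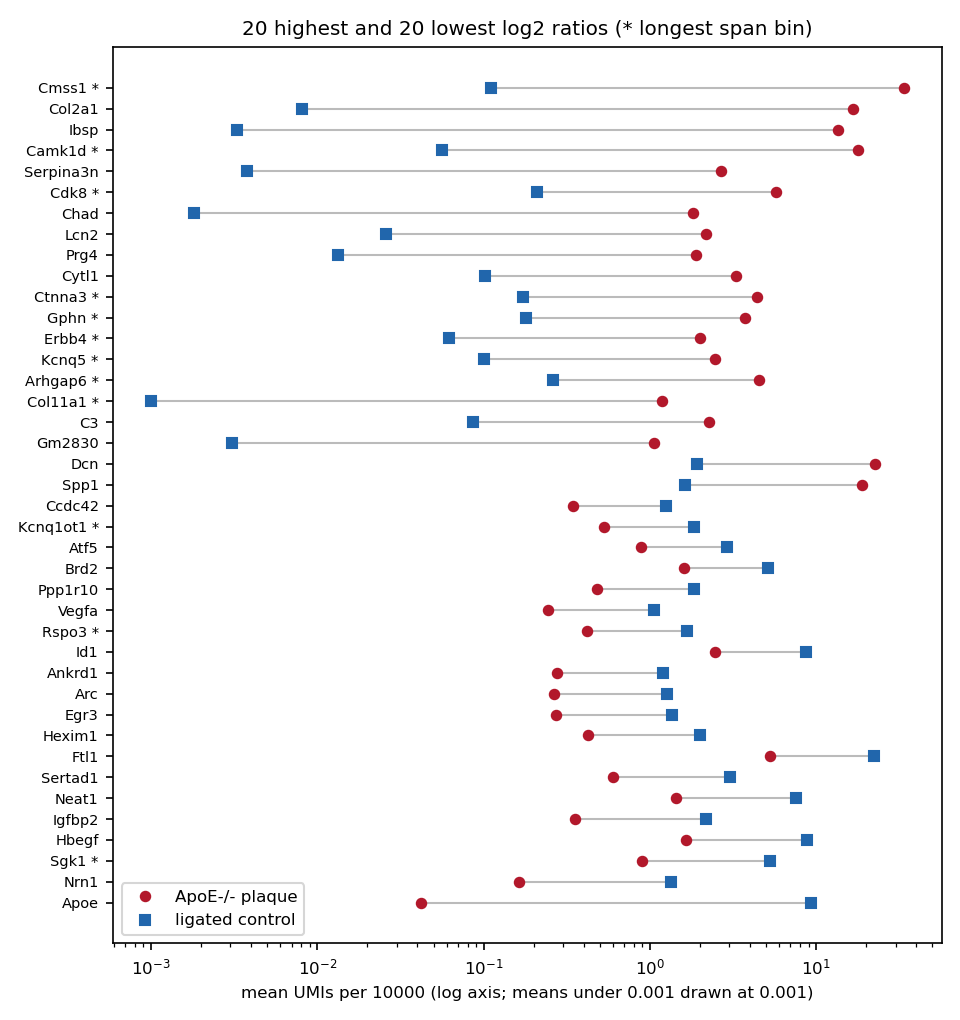
Mean UMIs per 10000 (log axis) in ApoE-/- plaque (circles) and ligated control cells (squares) for the 20 genes of highest and the 20 of lowest log2 ratio among those with a level of at least 1 in either library. Asterisks mark genes in the longest bin of genomic span, 9 of the 20 highest and 3 of the 20 lowest. Apoe has the widest gap at the lower end, with 0.042 against 9.26.

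The ratio went with the genomic span of the gene, from its first to its last annotated base. The percentage of genes higher in plaque was 3.12%, 1.94%, 2.39% and 19.2% from the shortest to the longest of 4 equal bins, and the percentage lower was 3.75%, 0.858%, 0.497% and 0.407%. The 2214 genes of the longest bin spanned at least 66.7 kb, and 426 of them were higher in plaque. Across 8858 genes Spearman's rho between span and log2 ratio was 0.439, a description over genes that share the same 2 libraries. Cell Ranger 7.0.0 counts reads in introns by default and 6.1.2 does not. Which setting was used is not given in the sources used here, and the part of introns in these ratios was not tested. Cmss1, with 33.9 in plaque and 0.111 in ligated cells (log2 ratio 7.33), overlaps Filip1l, whose level had a log2 ratio of -0.38. In the 3 shorter bins, 165 of 6644 genes (2.48%) were higher and 113 (1.70%) lower. Where the median of a list below changed its sign or fell to near 0 without its genes of the longest bin, the value over its shorter genes is given with it. Counts of list members below are to be read beside 6.66% higher and 1.36% lower over all 8954 genes.

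**Figure D2:**
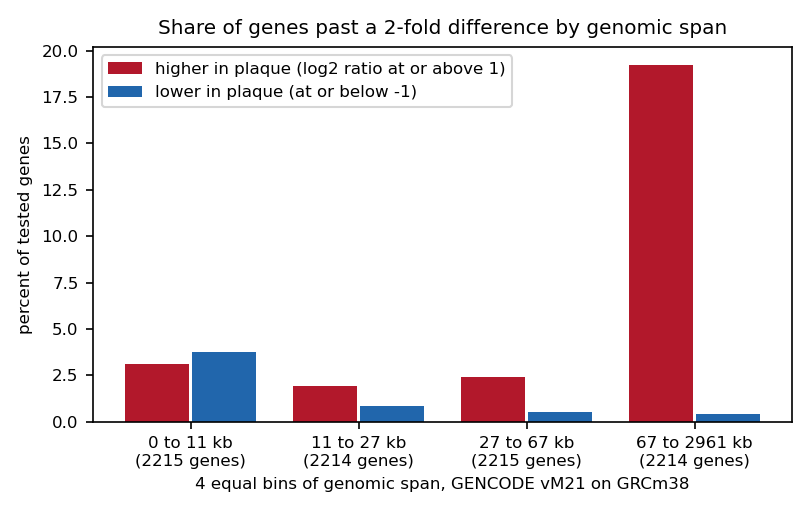
Percentage of tested genes called higher (red) or lower (blue) in plaque, by bin of genomic span in kb. The longest bin has 19.2% higher and 0.407% lower genes, and each of the other bins has under 4% in either direction.

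Of 30 genes of the contractile apparatus, 3 were higher and 2 lower in plaque, and 20 had a log2 ratio below 0. The median was -0.22 beside 0.07 over all genes, and over the 21 members outside the longest span bin 1 was higher and 2 lower, with a median of -0.31. Acta2, smooth muscle actin, had a level of 113 in plaque and 166 in ligated cells (log2 ratio -0.55, -0.56 to -0.55). Myh11, the smooth muscle myosin heavy chain, differed less, with 28.5 and 32.6 (-0.19, -0.21 to -0.18). Tagln and Cnn1, which bind actin filaments, had log2 ratios of -0.40 and -0.25. The 2 lower genes were Tpm1, a tropomyosin, with 13.7 and 30.5, and Pln, which restrains the calcium pump of the sarcoplasmic reticulum, with 0.29 and 0.839. The 3 higher genes were Dmd, which encodes dystrophin, with 24.8 and 4.25, the intermediate filament gene Des with 0.658 and 0.241, and Synpo2 with 6.39 and 2.92. Dmd and Synpo2 were in the longest span bin.

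The summed level of Myh11, Acta2, Cnn1, Tagln and Smtn in single cells had a median of 261 in plaque and 331 in ligated cells. At the 10th percentile it was 7.63 in plaque and 128 in ligated cells. A sum under 10 was found in 166 plaque cells (11.1%, exact 9.51% to 12.7%) and in 12 ligated cells (0.246%, 0.127% to 0.429%). The plaque library thus had a tail of cells with almost no contractile UMIs that the kept ligated cells nearly lacked. The 89 endothelial and myeloid cells left out of the ligated library are not in this count, whereas all plaque cells are. The lower quartile of the plaque library, 84.6, was used to set low-contractile cells apart. It gave 376 plaque and 271 ligated cells (5.56%, 4.93% to 6.24%). This is a range of a continuous score, and 39 plaque and 90 ligated cells lay within 10% of the threshold. Low-contractile and other cells had median depths of 26753 and 22040 UMIs in plaque and of 8663 and 8621 in ligated cells. A UMI of any of 4 Confetti reporters was found in 83.6% of plaque cells (81.6% to 85.4%), 65.4% of low-contractile ones (60.4% to 70.2%) and 90.7% of the 751 cells above the library's own contractile median (88.4% to 92.7%). Cells above the contractile median of their own library, 751 in plaque and 2439 in the ligated artery, are called highly contractile below. Between them 412 of 8624 genes (4.78%) were higher in plaque and 136 (1.58%) lower, and between low-contractile cells 922 of 9307 (9.91%) were higher and 229 (2.46%) lower.

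**Figure D3:**
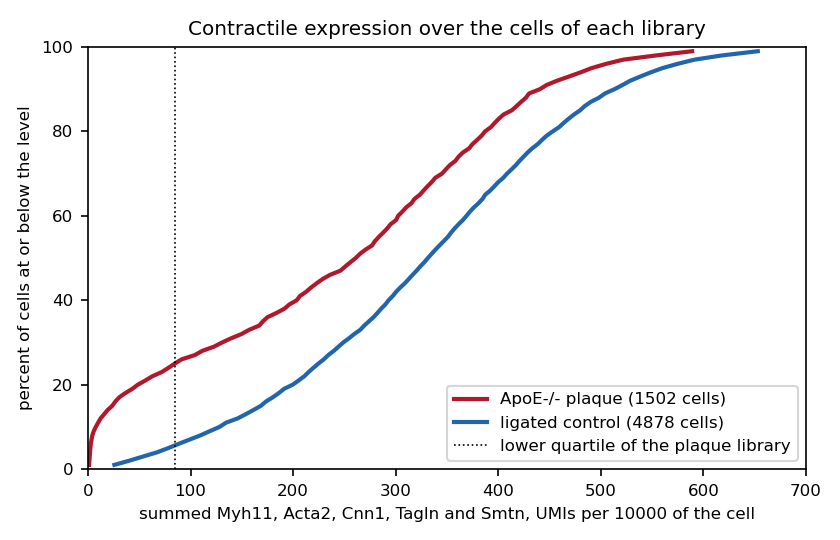
Percentage of cells (y axis) at or below each summed level of 5 contractile genes in UMIs per 10000 (x axis), for 1502 plaque and 4878 ligated cells. The plaque curve starts near 0 and reaches 25% at 84.6 (dotted line), where the ligated curve is at 5.56%.

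Genes of cartilage and bone were higher in plaque. Of 22 measured members of this list, 17 were higher and 1 lower, a median log2 ratio of 1.94, beside 6.66% higher and 0.07 over all genes. Leaving out the 5 longest members, 14 of 17 were higher with a median of 1.99. The median was 1.96 in the Trf2T188A pair. Most of the counted members were at or near 0 in the ligated artery and passed the level filter through their plaque level alone. The count and the median are therefore partly set by the filter. With no filter, which takes in Bglap, Bglap2 and Sp7, the median was 1.43. With 1 in place of 0.1 added the median was 0.48.

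Among the structural collagens and matrix proteins of cartilage, Col2a1 (chr15:97975602-98004695) had 108208 UMIs in plaque and 39 (27.7 to 53.3) in ligated cells, with levels of 16.6 and 0.00808. Col11a1, a minor fibril collagen of cartilage, had 8238 and 2 UMIs (0.242 to 7.22 for the latter). Chad, chondroadherin, had levels of 1.81 and 0.0018. The cartilage link protein gene Hapln1 had 0.382 and 0.0113. Acan, which encodes the large cartilage proteoglycan aggrecan, did not follow these genes, with 1.95 and 1.65 (log2 ratio 0.23). Sox9, the transcription factor of chondrocyte fate, had 1.07 and 1.17 (-0.12). In 4878 ligated cells, Acan UMIs were found in 55.3% and Sox9 UMIs in 47.9%, whereas Col2a1 UMIs were found in 0.615% (median depth 8621.5 UMIs). In the 89 endothelial and myeloid cells left out, with a median depth of 9947 UMIs, Acan UMIs were found in 8.99% and Sox9 UMIs in 11.2%.

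The bone-linked genes Ibsp (chr5:104299171-104311469) and Spp1 (chr5:104435118-104441050), which encode related phosphoproteins and lie close to each other, differed in what the ligated artery held. Ibsp had levels of 13.6 in plaque and 0.00331 in ligated cells (78266 and 15 UMIs, log2 ratio 7.05). Spp1, osteopontin, had 18.8 and 1.63 (3.45, 3.41 to 3.48). Alpl, the alkaline phosphatase of mineralising cells, had 0.373 and 0.0193. Runx2, the transcription factor of bone cell fate, was below the fold with 0.15 and 0.073. The lower gene was Phex, an endopeptidase of bone and phosphate balance, with 0.278 and 0.726. Of 16 genes that promote or inhibit vascular calcification, 4 were higher (Spp1, Alpl, Enpp2 and Nt5e) and 1 was lower. The lower one was Mgp, which encodes the calcification inhibitor matrix Gla protein and was among the most abundant transcripts, with 186 in plaque and 377 in ligated cells (-1.02, -1.02 to -1.01).

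Col2a1 and Ibsp UMIs lay mostly in the low-contractile plaque cells. In 376 low-contractile plaque cells Col2a1 had a level of 64.4, and in 751 highly contractile ones 0.163. In 271 low-contractile ligated cells it was 0.0163. Ibsp had 54.0, 0.101 and 0.0139 in the same order. Between highly contractile cells 2 of 9 members of the list were higher and 4 lower. The median was -0.08, against 1.94 over all cells. Between low-contractile cells 17 of 24 members were higher and 3 lower (median 2.76). The lower ones among low-contractile cells were Phex and the osteocalcin genes Bglap and Bglap2. Bglap had 0.213 in plaque and 0.824 in ligated low-contractile cells, and Bglap2 had 0.196 and 0.882. These near-identical copies were named after their values were seen, their counts are uncertain, and over all cells their log2 ratios were 0.05 and -0.0081. Spp1 was high in the low-contractile cells of both lesions, with 67.9 in plaque and 18.9 in ligated cells (log2 ratio 1.84). Acan had 6.49 and 1.04 there, and in highly contractile cells 0.264 in plaque and 1.69 in ligated cells. Sox9 had 3.15 and 1.63 in low-contractile and 0.244 and 0.951 in highly contractile cells. In the ligated artery Acan was thus lower in low-contractile than in highly contractile cells, and Sox9 was higher.

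**Figure D4:**
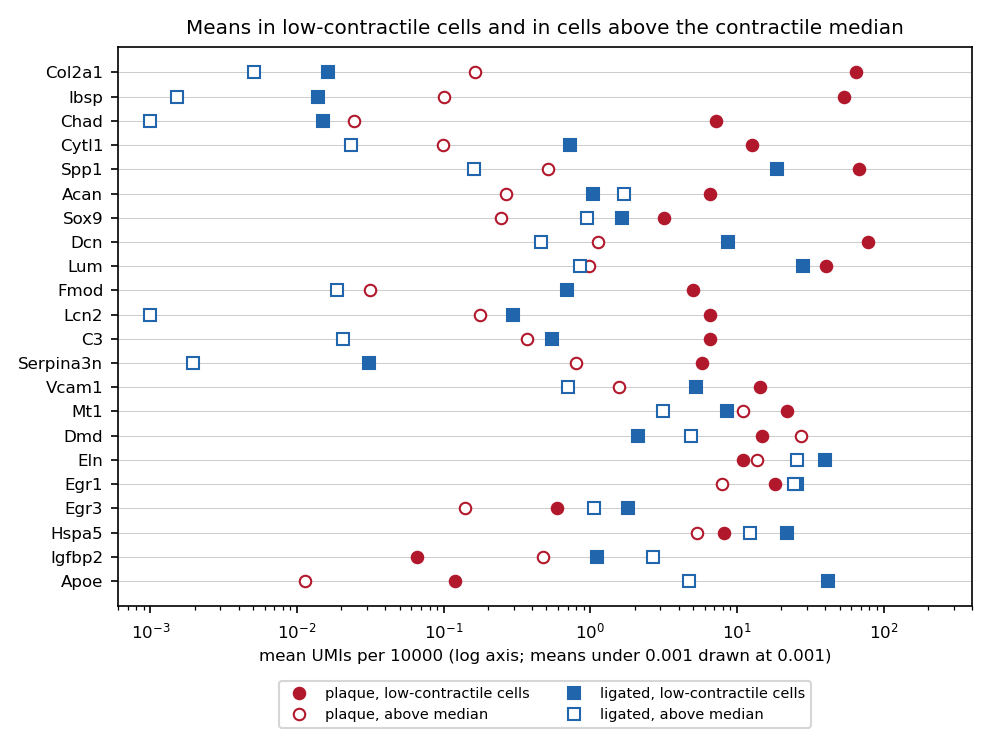
Mean UMIs per 10000 (log axis) of 22 genes in low-contractile cells (filled) and in highly contractile cells, above the median of their library (open), of plaque (circles) and ligated artery (squares). Col2a1 and Ibsp reach 64.4 and 54.0 in low-contractile plaque cells, whereas the other 3 groups lie under 0.2.

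As the libraries differed in depth, shares of cells with a UMI were also taken after every cell was thinned to 5000 UMIs, which left out 22 plaque and 315 ligated cells. Col2a1 UMIs were found in 32.0% of plaque cells before thinning and in 13.2% after (195 of 1480, exact 11.5% to 15.0%). After thinning they were found in 31.6% of low-contractile plaque cells and in 6.16% of highly contractile ones. In the ligated library the thinned share was 0.329% (0.184% to 0.542%), and in the endothelial and myeloid cells left out of it, which should lack the gene, it was 0 of 89 before thinning (exact upper bound 4.06%, median depth 9947 UMIs). Lyz2, a macrophage gene that VSMCs should lack, was found in 1.28% of thinned plaque cells. The myeloid gene Cd74 was found in 4.12% of them and the endothelial gene Pecam1 in 15.9%. In thinned highly contractile plaque cells the shares were 1.87% for Lyz2, 2.28% for Cd74 and 13.3% for Pecam1, beside 6.16% for Col2a1. Shares in highly contractile plaque cells may include free RNA, which was not tested.

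De-differentiation markers used in the study gave 3 higher and 2 lower of 10. These are markers that the authors followed in these samples, so their direction is not independent evidence. The median log2 ratio was 0.42, and it was -0.64 between highly contractile cells. The higher genes were the small leucine-rich proteoglycans Dcn (22.4 and 1.92), Lum (13.0 and 4.89) and Fmod (1.36 and 0.101), which bind collagen fibrils. The lower ones were Mgp and Eln, elastin, with 14.1 and 31.6. Col1a1, Col3a1 and Fn1 had log2 ratios of 0.77, 0.35 and 0.49. In highly contractile cells these 3 had -0.64, -0.27 and -0.83, and in low-contractile cells 0.76, 0.94 and 1.55. Tnfrsf11b, a decoy receptor for the osteoclast factor RANKL, had 1.92 and 1.56.

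The rest of the matrix differed by class. Of 21 proteoglycan genes 8 were higher and 0 lower (median 0.23), beside 6.66% higher over all genes. Besides those named, Prg4, the joint lubricant lubricin, had 1.89 and 0.0133, and Aspn had 1.07 and 0.337. Of 13 interstitial collagens 1 was higher, Col12a1, with 0.45 and 0.153 (log2 ratio -0.13 between highly contractile cells), and the list median was 0.55. Of 17 basement membrane genes 1 was higher (Lama2) and 4 were lower (median -0.12). The lower ones were the collagen IV genes Col4a3 and Col4a4, Lamc3, and Npnt, an integrin ligand, with 6.65 and 14.3. Of 19 elastic fibre genes 3 were higher and Eln was lower (median 0.07). The higher ones included the microfibril gene Mfap4 with 4.39 and 1.62, and the elastin cross-linker Lox was below the fold with 2.24 and 3.47. Of 19 matricellular genes 6 were higher and 2 lower (median 0.23), and of the 15 shorter ones 4 were higher and 2 lower (median 0.0064). Tnc, tenascin C, had 1.08 and 0.36, and Ccn1, an early gene of mechanical stress, had 6.68 and 15.3. Of 22 protease and inhibitor genes 2 were higher, Timp1 with 4.06 and 0.99 and Mmp3 with 0.638 and 0.201, and 0 were lower (median -0.03).

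**Figure D5:**
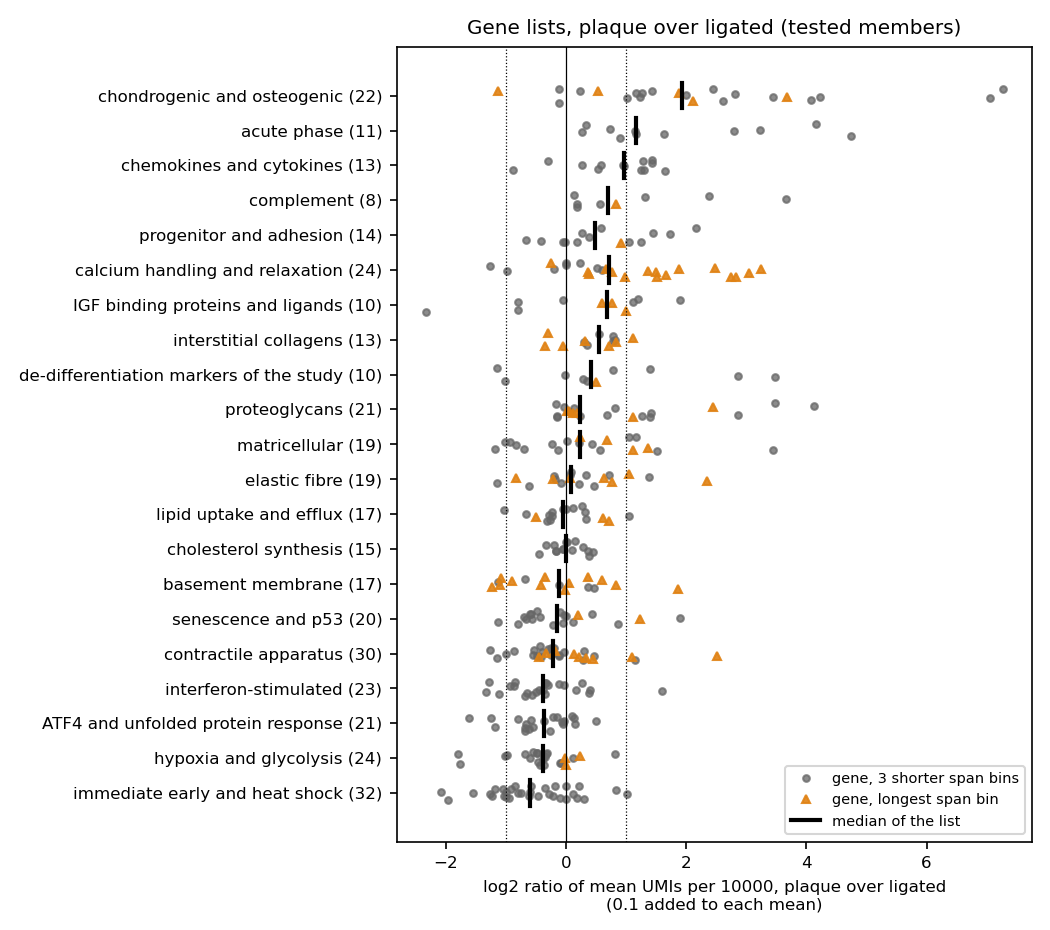
Log2 ratio of plaque over ligated artery (x axis) for each tested gene of 21 lists, with the number of tested genes in brackets, the list median as a bar and the genes of the longest span bin as triangles. Dotted lines mark the 2-fold difference. The cartilage and bone list has its median at 1.94, and the immediate early list lies lowest at -0.61.

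Genes of the acute phase, of complement and of chemokines were also among those higher in plaque, beside 6.66% higher over all genes. Of 11 acute phase genes 7 were higher and 0 lower (median 1.16, and 1.64 in the Trf2T188A pair), and none of the 11 were in the longest span bin. Serpina3n, a serine protease inhibitor, had 2.67 in plaque and 0.00377 in ligated cells, from 13978 and 19 UMIs. Lcn2, which binds bacterial siderophores, had 2.16 and 0.0258. Both genes passed the level filter through their plaque level alone. Itih4, an inter-alpha-trypsin inhibitor, differed from these in its place, with 8.29 in highly contractile and 1.87 in low-contractile plaque cells. Of 8 complement genes 3 were higher and 0 lower (median 0.69). C3, on which the complement pathways converge, had 2.26 and 0.086, C4b had 1.03 and 0.116, and Clu had 14.8 and 5.90. After thinning, C3 UMIs were found in 23% of plaque cells (20.9% to 25.2%) and 2.41% of ligated cells (1.99% to 2.90%), and in 49.9% and 11.2% of low-contractile cells. C3 UMIs were found, unthinned, in 4.49% of the endothelial and myeloid cells left out.

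Of 13 chemokine and cytokine genes, 6 were higher and 0 lower, beside 6.66% higher over all genes (median 0.97, and 0.21 between highly contractile cells). The neutrophil chemokine Cxcl1 had 2.65 and 1.01 (log2 ratio 1.30, 1.25 to 1.35), and Cxcl2 had 1.35 and 0.437. Ccl2, which draws monocytes, had 0.462 and 0.0801. Cxcl10, which is induced by interferon, went the other way without reaching the fold, with 0.242 and 0.532. The leukocyte adhesion genes Vcam1 (6.36 and 1.85) and Icam1 (0.734 and 0.252) were higher, as was Ly6a (0.763 and 0.0938), the stem cell antigen Sca1. They were among 5 of 14 progenitor and adhesion genes that were higher (0 lower, median 0.48). Of the 13 chemokine and cytokine genes 10 had a RefSeq promoter window, from 250 bases before the start to 50 after it. An NF-kB site on either strand was found in 5 of these genes. The site was found in 4.51% of 32851 windows and in 6.38% of 7053 tested genes with a window. The 5 genes with the site were Cxcl1, Cxcl2, Cxcl10, Il6 and Csf1. Of these only Cxcl1 and Cxcl2 were higher in plaque, and no site was found for the other higher genes of the list. The promoters of Cxcl1 and Cxcl2 are printed because these genes were both higher and held the site. It is in capitals, in GRCm38.p6 and 5′ to 3′. A match says nothing of the factor's binding here.
Cxcl1, chr5:90890995-90891294, plus strand: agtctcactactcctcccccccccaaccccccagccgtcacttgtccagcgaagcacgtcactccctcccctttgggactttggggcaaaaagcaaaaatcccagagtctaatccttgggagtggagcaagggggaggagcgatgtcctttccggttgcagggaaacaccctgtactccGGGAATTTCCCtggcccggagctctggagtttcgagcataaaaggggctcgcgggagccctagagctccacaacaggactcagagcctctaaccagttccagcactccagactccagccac
Cxcl2, chr5:90903649-90903948, plus strand: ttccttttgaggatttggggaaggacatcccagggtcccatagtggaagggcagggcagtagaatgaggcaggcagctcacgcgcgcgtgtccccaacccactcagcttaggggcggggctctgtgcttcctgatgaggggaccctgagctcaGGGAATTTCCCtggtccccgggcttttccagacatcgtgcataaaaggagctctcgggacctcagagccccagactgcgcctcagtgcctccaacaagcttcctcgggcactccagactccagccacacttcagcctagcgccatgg

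Interferon-stimulated genes did not share this direction. Of 23 genes 1 was higher and 3 were lower, 18 were below 0, and the median log2 ratio was -0.38 (0.12 in the Trf2T188A pair). The lower genes were Isg15, a ubiquitin-like protein, with 0.268 in plaque and 0.831 in ligated cells, Ifit3 with 0.0985 and 0.386, and Igtp, a guanosine triphosphatase (GTPase) induced by interferon gamma, with 0.0335 and 0.189. In the Trf2T188A pair their log2 ratios were -0.32, -0.73 and -0.14. The higher gene was Ifi27l2a, with 0.878 and 0.224. MHC class I genes had 0 higher and 0 lower of 15 (median -0.23), and B2m, the common light chain, had 5.08 and 7.2. Among 19 genes of the list with a window, 13 held the interferon-stimulated response element. It was searched as GAAA, any 2 bases and GAAA on either strand. Of tested genes with a window 3.47% held it, as did 3.44% of all windows. The windows of the 3 lower genes are printed with the element in capitals, because all held it while their levels were lower.
Ifit3, chr19:34583279-34583578, plus strand: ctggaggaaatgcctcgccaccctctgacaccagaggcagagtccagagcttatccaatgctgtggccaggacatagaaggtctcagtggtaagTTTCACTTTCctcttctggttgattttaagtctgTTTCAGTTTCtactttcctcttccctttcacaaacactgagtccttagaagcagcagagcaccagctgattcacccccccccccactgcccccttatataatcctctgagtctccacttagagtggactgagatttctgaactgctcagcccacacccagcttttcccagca
Isg15, chr4:156200769-156201068, minus strand: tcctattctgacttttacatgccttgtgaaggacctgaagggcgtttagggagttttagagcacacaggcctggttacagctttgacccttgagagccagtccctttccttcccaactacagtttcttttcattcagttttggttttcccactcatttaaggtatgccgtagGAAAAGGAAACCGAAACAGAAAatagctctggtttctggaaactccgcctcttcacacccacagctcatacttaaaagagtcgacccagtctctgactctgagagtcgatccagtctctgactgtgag
Igtp, chr11:58199306-58199605, plus strand: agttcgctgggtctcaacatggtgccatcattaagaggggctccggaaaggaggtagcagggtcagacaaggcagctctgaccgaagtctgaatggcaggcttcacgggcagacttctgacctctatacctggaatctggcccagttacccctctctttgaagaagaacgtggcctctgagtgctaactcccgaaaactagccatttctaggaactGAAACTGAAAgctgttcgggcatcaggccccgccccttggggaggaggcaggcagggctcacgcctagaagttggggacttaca

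Of 32 immediate early and heat shock genes 9 were lower in plaque and 1 higher, beside 1.36% and 6.66% over all genes. Of the 32 genes 26 were below 0, and the median was -0.61. In the Trf2T188A pair 3 were lower and 2 higher (median -0.42), and between low-contractile cells 4 were lower and 3 higher (median -0.55). None of them were in the longest span bin. Egr1, a serum-induced transcription factor, had 11.4 in plaque and 27.5 in ligated cells (log2 ratio -1.27, -1.29 to -1.25), and its relatives Egr2 and Egr3 had -2.08 and -1.97. Atf3 had 6.7 and 14, and Fos, the most abundant, was below the fold with 25.6 and 43.1. The higher gene was Zfp36, which destabilises cytokine messages, with 4.82 and 2.35. Hbegf, an EGF receptor ligand, had 1.65 and 8.75, and Sgk1, a kinase of the stress response, had 0.896 and 5.25.

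Of 21 genes of the ATF4 and unfolded protein responses 0 were higher and 3 lower (median -0.37). These were the transcription factors Atf4 (1.19 and 2.97) and Atf5 (0.881 and 2.91), and Hspa5, the main chaperone of the endoplasmic reticulum, with 6.35 and 14.6. Of 24 hypoxia and glycolysis genes 0 were higher and 3 lower (median -0.38), namely Vegfa (0.242 and 1.06), Ankrd37 (0.0583 and 0.45) and Gapdh (4.60 and 9.40). Oxidative stress and metal genes were mixed, with 6 higher and 2 lower of 22 (median 0.18). The metallothioneins Mt1 (15.7 and 3.90) and Mt2 (4.09 and 0.954), which bind zinc, and Gpx3, a secreted peroxidase, were higher. Hmox1, which degrades haem, was lower with 0.147 and 0.72. Ftl1, the ferritin light chain, had 5.26 and 22.2, but its gene has near-identical copies and its counts are uncertain.

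Few lipid genes were past the fold. Of 15 cholesterol synthesis genes 0 were higher and 0 lower (median -0.0025). Of 17 genes of lipid uptake and efflux 1 was higher, Pltp, and 1 lower, Lpl, the lipoprotein lipase, with 0.62 and 1.37 (median -0.05). Abca1, which exports cholesterol, was below the fold with 0.828 and 0.51.

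Senescence and cell cycle genes were not higher in plaque as lists. Of 20 senescence and p53 genes 2 were higher and 1 lower (median -0.16). The lower one was Cdkn1a, the p21 cell cycle inhibitor, with 1.45 and 3.29 (log2 ratio -1.13, -1.18 to -1.08). Cdkn2a, which encodes p16 and p19Arf, was below the level filter with 0.026 in plaque and 0.083 in ligated cells. Sesn1, a p53 target in the longest span bin, was higher with 1.08 and 0.402. Igfbp3 had 0.28 and 0.00229, but its UMIs were in 1.33% of plaque cells and its log2 ratio in the Trf2T188A pair was -0.03. Of 9 cell cycle genes 0 were higher and 2 lower (median -0.21), the D cyclins Ccnd1 (0.154 and 0.702) and Ccnd2 (2.35 and 5.16).

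Signalling pathway lists differed in the share of members past the fold, beside 6.66% higher and 1.36% lower over all genes. Of 26 TGF-beta genes 3 were higher and 0 lower (median 0.13), among them Smad3 (0.428 and 0.0964) and the target Tgfbi (0.226 and 0.00923). Among the 15 shorter genes of this list 1 was higher and the median was -0.13. Of 21 BMP genes 2 were higher and 3 lower (median 0.16), but both higher genes were in the longest span bin, and among the 15 shorter genes 0 were higher, 3 were lower and the median was -0.31. The lower genes were the BMP targets Id1 (2.47 and 8.68) and Id2 (2.86 and 6.52), and Sost, which encodes the Wnt inhibitor sclerostin, with 6.04 and 13.4. Of 17 Wnt genes 2 were higher and 1 lower (median 0.37). The higher ones were the secreted inhibitors Wif1 (1.40 and 0.376) and Frzb (2.05 and 0.749), and the lower was the agonist Rspo3 (0.417 and 1.66). Of 10 IGF genes 4 were higher and 1 lower (median 0.68), and the lower one, Igfbp2, had 0.352 and 2.18. The median was -0.05 over the 7 shorter genes, of which 3 were higher and 1 lower. It was 0.07 in the Trf2T188A pair, with 1 higher and 1 lower of 8, and -0.84 between highly contractile cells. Of 12 Notch genes 1 was higher, Maml2, a long gene (median 0.05, and -0.014 over 9 shorter genes).

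Of 28 VSMC transcription factors 2 were higher (Zeb1 and Mrtfa, both long genes) and 1 lower (median 0.11, and -0.18 over 15 shorter genes). The lower one was Twist1, with 0.344 and 1.05. Myocd, the coactivator of contractile genes, had 2.82 and 1.38 (log2 ratio 0.98) and is also long. Klf4, which represses contractile genes, had 3.49 and 6.66 (-0.91). Among 7 Hox genes 1 was higher, Hoxa7, with 0.164 and 0.00853 (638 and 45 UMIs) (median 0.52). Of these 7 genes, 3 had a log2 ratio below 0. Hox genes mark position along the body. The plaques came partly from the aorta, but arterial site cannot be told apart from the other differences between the sides and was not tested.

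Of 24 genes of calcium handling and relaxation 10 were higher and 1 lower (median 0.71), and all 10 higher genes were in the longest span bin. Among them were Kcnma1, the calcium-activated potassium channel (2.90 and 0.218), Cacna1c, the L-type calcium channel (2.02 and 0.197), and Prkg1, the cyclic GMP-dependent kinase (7.06 and 0.963). Among the 8 shorter genes 0 were higher and the median was 0.00. Of 12 G-protein signalling genes 3 were higher (median 0.10, and -0.09 over 8 shorter genes), among them the pericyte and VSMC gene Rgs5 with 4.16 and 1.71, whose log2 ratio was -0.59 among low-contractile cells.

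Of 18 long noncoding RNAs 1 was higher and 3 lower (median -0.09). The lower ones were Neat1, the scaffold of nuclear paraspeckles, with 1.43 and 7.53, Kcnq1ot1 and Snhg1. Of 15 mitochondrially encoded genes 4 were higher (median 0.36), whereas the median of the Trf2T188A pair was -0.17. Of 3 Y-linked genes measured, Uty, a long gene, was higher and Ddx3y had 1.03 and 1.05, and Xist had 2 and 6 UMIs in the 2 libraries.

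Markers of other cell types were checked beside these lists. The summed level of the 7 endothelial genes of the selection rule was 0.553 in plaque, and 1.07 in ligated cells before the selection and 0.192 after it. That of the 7 myeloid genes was 0.0555 in plaque and 0.715 and 0.0132 in ligated cells. The ligated values after selection were set by the rule, which dropped cells by these genes. Other endothelial markers summed to 3.98 and 5.07, and other myeloid markers to 0.628 and 0.404. Neither list had a gene past the fold among the 5 and 2 tested over all cells. Other myeloid genes had 3 of 4 tested higher between low-contractile cells (median 1.03) and 3 of 4 higher in the Trf2T188A pair (median 1.29). Fibroblast and adventitial markers had 5 higher and 0 lower of 11 tested (median 0.50), and summed to 19.1 and 12.2. All 3 members in the longest span bin were higher, as were 2 of the 8 shorter ones (median 0.47). Dpt had 0.512 and 0.0157, Clec3b had 0.143 and 0.000997, and Gsn, the most abundant, had 9.26 and 6.84. Between highly contractile cells the median of the fibroblast list was -0.21, and among low-contractile cells it was 1.40. Pericyte markers had 2 higher of 7 (median 0.05), the glial S100b had 0.193 and 0.0238, and the cardiac Tnnt2 had 0.556 and 0.0887. Lymphoid markers had 0 of 11 at the level filter. What part other cell types have in the low-contractile plaque cells, of which 34.6% had no reporter UMI, was not tested.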

How the data were processed

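Single-cell RNA-seq libraries (10x Genomics Single Cell 3′ kit, NovaSeq) were analysed as deposited. Per the submitters' processing notes, reads were mapped to GRCm38 with Cell Ranger 7.0.0 for the plaques and 6.1.2 for the ligated arteries. Cells were handled in Seurat, for which the notes and the study's methods give differing versions. The authors removed cells with few genes or a high mitochondrial share, and from the ligation libraries also cells dominated by their most abundant genes. The deposited values are a signal: the authors scaled the UMIs of each gene to 10000 UMIs per cell. Whole UMIs were recovered for 100% of values (within 0.01 of a whole number).

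Levels, log2 ratios and exact Poisson and Clopper-Pearson intervals were computed in Python 3.11.15 with numpy 2.4.6, scipy 1.17.1 and pandas 2.3.3, and plots with matplotlib 3.10.9. Intervals of log2 ratios carry the counting error of both means. Doublets were not called. Instead, the 5% of cells with the most UMIs were left out as an alternative. Tested genes had a mean of at least 0.1 in either library, and the selection genes were left out. A gene near 0 in 1 library could thus pass through the other alone, which bears on every list count and median. Gene positions were from GENCODE on GRCm38 and promoters from RefSeq on GRCm38.p6. NF-kB and CArG sites and the interferon element were searched on both strands. CArG boxes were found in 4 of 25 contractile genes with a window and 2 of 25 immediate early ones. They were found in 1.73% of tested genes with a window and in 1.63% of all windows.

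Named genes were Apoe, the 20 highest and 20 lowest ratios with a mean of at least 1, and, of each of 46 lists, the members of highest mean or ratio and those a sentence needed. The members and lists were chosen with earlier results of these data known. Of the lists, the red blood cell genes were not listed in the ligation table. On simulated libraries of 1000 cells a side (8051 genes in that step), 164 of 200 changed genes passed the 2-fold limit, 74% at a true fold of 0.25, 58% at 0.333, 96% at 3 and 100% at 4, and 0 of the genes left unchanged did. All simulated cells were drawn at real depths from the ligated profile, with the changed genes altered on 1 side. Differences between cells, mice or processing were not simulated. The 0 therefore says nothing of false calls between the 2 real libraries. In all, 13 alternatives were planned and 2 were chosen after seeing the data.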

Additional observations from a re-analysis of the deposited data

Results flagged for a closer look

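In 7 gene lists the median log2 ratio of plaque over ligated artery had opposite signs in the 2 genotypes, a difference that was not tested. Interferon-stimulated genes had -0.38 in the control pair and 0.12 in the Trf2T188A pair, and MHC class I genes -0.23 and 0.19. Mitochondrially encoded genes had 0.36 and -0.17, and their member mt-Co3 had 1.03 and -0.054. Proteases and their inhibitors had -0.033 and 0.039, lipid uptake and efflux -0.048 and 0.017, G-protein signalling 0.10 and -0.030, and other endothelial markers -0.05 and 0.15.

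The plaque table also lists features that the ligation table does not. At a mean of at least 1 these were the noncoding RNA Gm23935 (6.19), the gene Galnt2l (1.97), and the Confetti reporters EYFP-cDNA (2.40) and mCereulean-cDNA (1.81). The ligation table has no feature of its own at a mean of 0.1.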

How the results depend on the processing

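No paired analysis was possible because each side is 1 library and no test was made. Of 174 named genes past the fold, 169 kept their direction under each alternative that compared single genes and whose filter they passed. The 5 that did not were mt-Co3 (-0.054, Trf2T188A pair), Igfbp5 (-0.16) and Rgs5 (-0.59) among low-contractile cells, and Col12a1 (-0.13) and Comp (-0.084) between cells above the contractile median. The alternative of the 3 shorter span bins compared 0 single genes. A change of pseudocount or of filter cannot reverse a direction. Named genes under the level filter were not counted, among them Igfbp3 (-0.034) in the Trf2T188A pair, and Col10a1 (-0.072), Efemp1 (-0.12) and Nt5e (-0.057) between cells above the contractile median. The cause of each shift below was not tested beyond what an alternative itself does.

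With a pseudocount of 1 there were 89 higher and 27 lower genes, and medians of 0.40 (de-differentiation) and 0.48 (cartilage and bone). With 0.01 there were 1026 and 233, and 3.92 for cartilage and bone. From summed UMIs the medians were -0.33 (contractile), 0.71 and 2.45. A filter on 10% of cells gave 1.62 for cartilage and bone, and no filter 0.35 (de-differentiation) and 1.43. Without the selection rule de-differentiation was 0.44. Cells above the contractile median gave -0.032, -0.64 and -0.084 for the 3 lists, so the de-differentiation and the cartilage and bone medians changed sign. The contractile value is set in part by the choice of cells, which was made by contractile genes such as Myh11 and Acta2. Without the 5% deepest cells de-differentiation was 0.31 and cartilage and bone 1.77, and with totals free of mitochondrial and ribosomal protein genes the latter was 2.04. After the median was subtracted, contractile was -0.29 and de-differentiation 0.35. The Trf2T188A pair gave -0.32 and 0.66. In the 3 shorter span bins, chosen after seeing the data, 165 genes were higher, and medians were -0.31 and 0.35. Among low-contractile cells, also chosen after seeing the data, 922 were higher and 229 lower, with medians of -0.55, 0.64 and 2.76. The contractile value of -0.55 is likewise set in part by the choice of cells. Depth limits statements on Cdkn2a and other genes near the level filter. With every cell thinned to 5000 UMIs, Cdkn2a UMIs were found in 10 of 1480 plaque cells (0.676%, 0.324% to 1.24%). In the ligated library they were found in 164 of 4563 (3.59%, 3.07% to 4.18%).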
